A study of Mus musculus with 30 samples.

Results

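The genes described here encode the machinery that copies DNA and supplies its building blocks. The set is a list of 41 genes given by symbol, and all 41 were found among 19938 genes measured on 30 mouse arrays, each through its single-gene probe set with the highest mean, with no filter on low values. RNA came from satellite cells, the muscle stem cells, sorted as quiescent satellite cells (QSCs) from uninjured hindlimb muscle or as activated satellite cells (ASCs) 36, 60 or 84 h after injury with BaCl2. In C57BL6 wild-type mice the sort took cells carrying VCAM and lacking CD31, CD45 and Sca1 (the VCAM sort). In Pax7CreER/+;ROSA26eYFP/+ mice it took YFP+ cells, which are labelled where Cre driven from the Pax7 locus was active, together with their descendants (the YFP sort). The paper reports tamoxifen treatment of mice with this genotype in its check of the sort. The 10 groups of 3 arrays were old VCAM ASCs at 60 h and old VCAM QSCs (22 to 24 months), young VCAM ASCs at 36, 60 and 84 h and young VCAM QSCs (2 to 3 months), and young YFP ASCs at 36, 60 and 84 h and young YFP QSCs (2 to 3 months). Whether arrays within a group stand for separate animals is not given in the labels, so p-values measure the spread between arrays, which may be technical.

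Before a cell enters S phase, the origin recognition complex (ORC), Cdc6 and Cdt1 load rings of the MCM2-7 helicase onto replication origins, and geminin (Gmnn) later blocks Cdt1 so that origins are not loaded again. Mcm10, the GINS complex and Cdc45 turn the loaded ring into a moving helicase. Polymerase alpha with primase lays down primers, the RFC complex loads the PCNA clamp, and polymerases delta and epsilon extend the strands, while RPA coats single-stranded DNA, Fen1 and Lig1 trim and join the fragments, and CAF-1 puts histones on the new DNA. Ribonucleotide reductase, thymidylate synthase and thymidine kinase supply deoxynucleotides. Many of these genes are known targets of E2F transcription factors, which the retinoblastoma protein holds back in quiescent cells.

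In both sorts every one of the 41 genes was lowest in QSCs and highest at 60 h among the 4 young groups. All values are log2 intensities, so a difference of 1 is a doubling of signal, and a gene was called changed at a Benjamini-Hochberg adjusted p under 0.05 in limma together with a fold of at least 1.5. In young VCAM cells 40 genes were called higher at 36 h than in QSCs, against 13.2% of all genes tested, and 41 at 60 h, against 16.6%, and 41 at 84 h, against 16.4%. The median change of the 41 genes was 1.90 at 36 h, 2.42 at 60 h and 2.04 at 84 h, where the median over all genes lay between -0.04 and -0.01. In young YFP cells 40 genes were called higher at 36 h, against 10.1% of all genes, 41 at 60 h, against 17.2%, and 40 at 84 h, against 17.0%, with medians of 1.70, 2.44 and 1.96. The arrays of ASCs and QSCs did not overlap for any of the 41 genes at any of the 3 times in either sort. Over all genes, every ASC array lay above every QSC array for 29.6% at 36 h, 30.5% at 60 h and 32.1% at 84 h in VCAM cells, and for 25.8%, 31.3% and 30.8% at these times in YFP cells. The 3 comparisons within a sort use the same QSC arrays. Fewer cycling cells and less transcript per cell cannot be told apart in RNA from a sorted population.

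**Figure D1:**
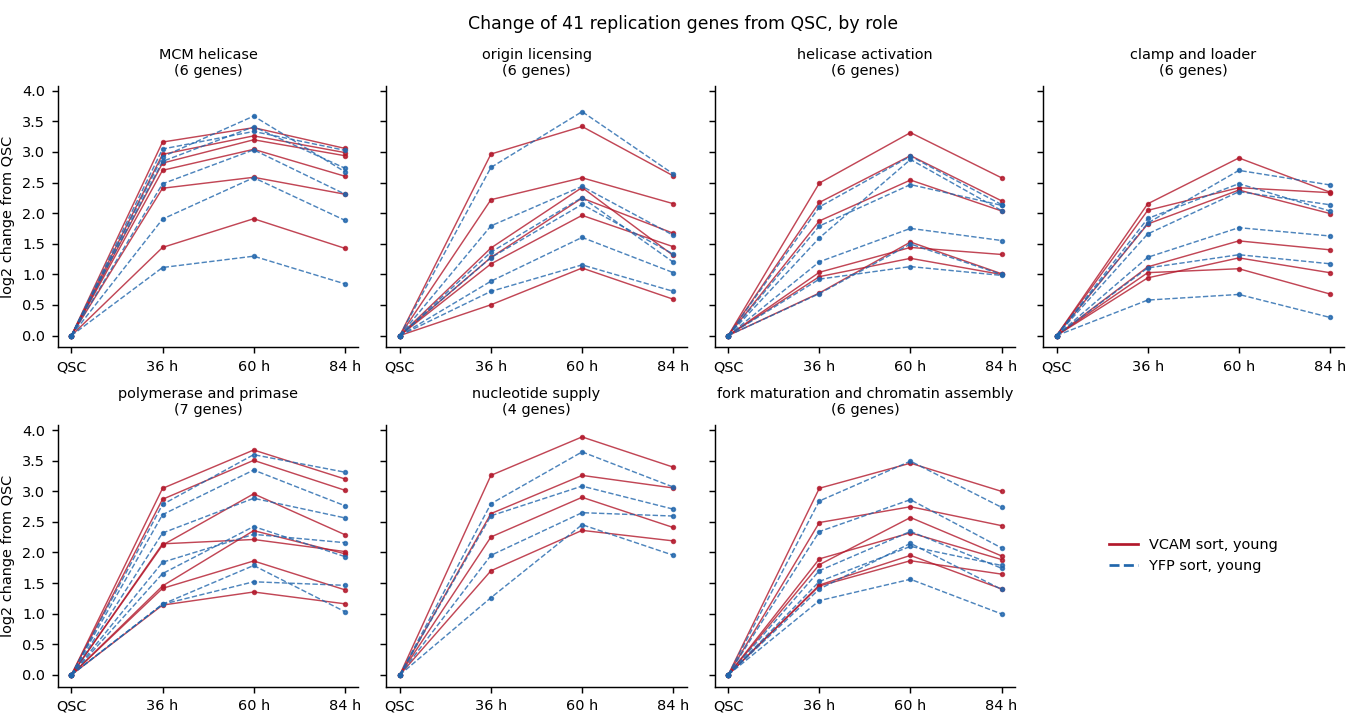
Log2 change of each of the 41 genes from QSCs of the same sort (y axis) at QSC, 36, 60 and 84 h (x axis), 1 line per gene, in 7 panels by role, with young VCAM cells as solid red and young YFP cells as dashed blue lines. All lines rise to 60 h and are lower at 84 h, and the largest changes belong to Rrm2 (3.89) in VCAM cells and Cdc6 (3.66) in YFP cells.

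The promoters of these genes were read for the E2F word, since the genes moved together. RefSeq windows of 300 bases (build GRCm38.p6, 250 before to 50 after the transcript start, here position 0) matched 33 of the 41 genes in 38 windows. The set of windows held none for Mcm4, Gmnn, Gins1, Gins2, Gins4, Rfc2, Prim2 and Pole. The words searched on both strands were TTTCCCGC, TTTCGCGC, TTTGCCGC and TTTGGCGC. Of the 33 genes 13 held at least 1 of these words in a window, as did 2.6% of the 27025 genes in the table, and 13 of 38 windows did, as did 2.26% of all 32851 windows. The CCAAT box (CCAAT, both strands) was in windows of 21 of the 33 genes, against 41.06% of all genes, and the cell cycle homology region (TTTGAA, both strands) in 4, against 20.23%. Neither word is contained in an E2F word.

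The genes with an E2F word were 4 of the 5 MCM2-7 genes with a window (Mcm3, Mcm5, Mcm6 and Mcm7), 3 of 5 licensing genes (Orc1, Cdc6 and Cdt1), 3 of 5 polymerase and primase genes (Pola1, Pold1 and Pole2), and Gins3, Rfc3 and Lig1, and none of the 4 nucleotide supply genes held one. The stretches around the words are shown for 5 genes that the results below turn on or that hold paired words, with Rrm2, the gene of the largest rise in VCAM cells and without a word in its window, beside them. Each reads 5′ to 3′ on the gene's strand, with E2F words in capitals.
Mcm5 (chr8:75109329-75109458, plus strand): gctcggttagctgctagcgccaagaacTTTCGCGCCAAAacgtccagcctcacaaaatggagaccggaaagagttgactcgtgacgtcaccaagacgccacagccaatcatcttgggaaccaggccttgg
Mcm6 (chr1:128359706-128359835, minus strand): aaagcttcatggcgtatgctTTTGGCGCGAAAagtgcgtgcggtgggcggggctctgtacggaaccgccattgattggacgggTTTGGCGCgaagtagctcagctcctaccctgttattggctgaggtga
Orc1 (chr4:108579324-108579453, plus strand): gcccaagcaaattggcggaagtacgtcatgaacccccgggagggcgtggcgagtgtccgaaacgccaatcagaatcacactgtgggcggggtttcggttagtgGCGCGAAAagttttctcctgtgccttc
Cdc6 (chr11:98907971-98908100, plus strand): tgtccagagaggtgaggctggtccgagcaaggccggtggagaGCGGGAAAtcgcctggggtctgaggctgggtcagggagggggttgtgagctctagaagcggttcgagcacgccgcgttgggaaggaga
Rfc3 (chr5:151651189-151651338, minus strand): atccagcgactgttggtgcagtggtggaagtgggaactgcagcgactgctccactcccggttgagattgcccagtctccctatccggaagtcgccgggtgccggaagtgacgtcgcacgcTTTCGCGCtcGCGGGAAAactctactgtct
Rrm2 (chr12:24708124-24708253, plus strand): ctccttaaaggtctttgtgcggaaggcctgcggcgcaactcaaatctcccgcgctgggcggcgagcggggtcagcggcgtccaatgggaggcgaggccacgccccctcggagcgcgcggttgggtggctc

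In Mcm5 and Mcm6 the capitals of 12 bases are 2 words that overlap on opposite strands, at -153 to -142 in Mcm5 and -110 to -99 in Mcm6, and Mcm6 held a further word at -47 to -40. Orc1 had its word at -27 to -20 and Cdc6 at -138 to -131, both on the minus strand of the window. Rfc3 had 1 word ending 3 bases before the start and another beginning at it. As a description, the median change at 60 h in young VCAM cells was 2.59 (range 1.35 to 3.42) over the 13 genes with a word and 2.45 (range 1.09 to 3.89) over the 20 with a window but no word. A match is a run of letters, and no binding was measured on these arrays.

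**Figure D2:**
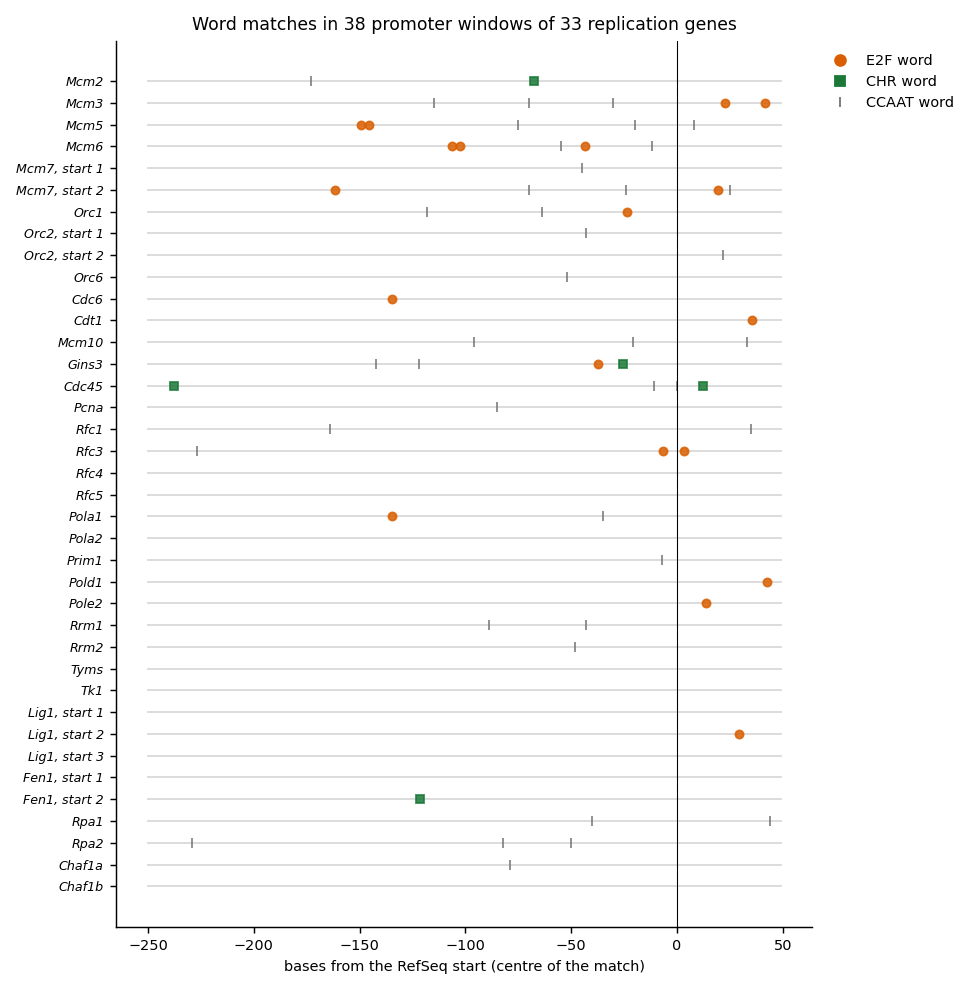
Position of each word match, as bases from the RefSeq transcript start (x axis, centre of the match), in 38 windows of 33 genes (y axis, grouped by role; genes with several starts have several lines). Orange circles are E2F words, green squares the TTTGAA word and grey ticks CCAAT; 13 genes carry an orange circle, most of them MCM, licensing and polymerase genes.

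The MCM2-7 genes, which encode the 6 subunits of the helicase ring, were called higher than in QSCs at every time in both sorts, with the larger part of the rise made by 36 h. Mcm3 read 7.96, 8.01 and 8.24 in young VCAM QSCs, 11.24, 11.17 and 11.29 at 36 h, 11.44, 11.48 and 11.49 at 60 h, and 11.12, 11.12 and 11.15 at 84 h. The QSC arrays lay far below all ASC arrays, and the 60 h arrays were the highest. At 36 h Mcm3 was 8.95-fold higher than in QSCs (log2 3.16, SE 0.08, adjusted p = 1.42e-21). Mcm2 read 10.74, 10.67 and 10.77 at 36 h against 7.92, 7.82 and 7.99 in VCAM QSCs, a change of 2.82 (SE 0.06, adjusted p = 3.25e-23). Mcm6 rose by 2.96, and the smallest MCM change was that of Mcm4 at 1.44. By 36 h the MCM genes had covered from 75.4% (Mcm4) to 93.1% (Mcm3 and Mcm7) of their log2 rise to 60 h in VCAM cells, where the median over all 41 genes was 76.7%.

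Between 36 and 60 h no MCM2-7 gene was called in VCAM cells (changes of 0.18 to 0.47), whereas Mcm3 (0.66) and Mcm7 (0.68) were called higher in YFP cells. Mcm7 read 11.22, 11.26 and 11.27 in VCAM and 10.83, 10.91 and 10.91 in YFP cells at 36 h, so the 36 h arrays of the sorts did not overlap. At 84 h the fall from 60 h was called for 4 of 6 MCM genes in YFP cells (Mcm2, Mcm3, Mcm5 and Mcm7) while in VCAM cells the 6 differences of -0.26 to -0.48 stayed short of the fold. Mcm3 read 10.68, 10.64 and 10.75 in YFP cells at 84 h against 11.55, 11.58 and 11.67 at 60 h, a difference of -0.91 (SE 0.08, adjusted p = 1.23e-09). Whether the fall differed between the sorts was not tested.

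Among the licensing genes the largest changes were those of the loaders Cdc6 and Cdt1, and the ORC subunits made more of their rise after 36 h. Cdc6, the ATPase that helps ORC to load the helicase, read 7.16, 7.07 and 7.27 in young VCAM QSCs, 10.12, 10.09 and 10.17 at 36 h, 10.58, 10.54 and 10.62 at 60 h, and 9.85, 9.71 and 9.77 at 84 h. It was 7.81-fold higher at 36 h than in QSCs (log2 2.97, SE 0.10, adjusted p = 8.04e-19), with no overlap. Cdt1, its partner in loading, read 9.74, 9.60 and 9.70 at 36 h against 7.31, 7.55 and 7.51 in VCAM QSCs, and was 4.66-fold higher (log2 2.22, SE 0.06, adjusted p = 4.27e-21). From 60 to 84 h Cdc6 fell by 0.81 (SE 0.10, adjusted p = 9.9e-07) in VCAM cells, with all 84 h arrays below all 60 h arrays. In YFP cells it read 6.76, 7.21 and 6.68 in QSCs, 9.62, 9.61 and 9.65 at 36 h, 10.59, 10.58 and 10.46 at 60 h, and 9.56, 9.48 and 9.54 at 84 h. There the step to 60 h was called as well (0.91, SE 0.10, adjusted p = 3.2e-08), and the fall to 84 h was 1.02 (SE 0.10, adjusted p = 1.16e-08).

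Orc1, the ORC subunit whose level is known to vary through the cell cycle, read between 5.74 and 6.02 in VCAM QSCs, 7.51, 7.30 and 7.25 at 36 h, 8.12, 8.32 and 8.58 at 60 h, and 7.06, 7.31 and 7.32 at 84 h. Its 36 and 84 h arrays overlapped, and the 60 h arrays stood above both. Its change from 36 to 60 h was 0.99 (SE 0.11, adjusted p = 1.76e-08), and from 60 to 84 h it fell by 1.11 (SE 0.11, adjusted p = 8.89e-09), the largest step in each direction among the 41 genes in VCAM cells. In YFP cells the same gene read 7.25, 7.19 and 7.04 at 84 h against 8.14, 8.11 and 8.39 at 60 h, and the fall was 1.05 (SE 0.11, adjusted p = 1.17e-08). Orc2 rose by 0.79 from 36 to 60 h in VCAM cells and was 0.51 lower at 84 h, a difference that did not reach the fold.

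Orc6, another ORC subunit, changed least of the 41 genes at 36 h in VCAM cells. It read 10.23, 10.26 and 10.29 at 36 h against 9.71, 9.69 and 9.87 in VCAM QSCs, without overlap, and the difference of 0.50 (SE 0.06, adjusted p = 2.34e-08) was a 1.42-fold one, under the fold required. It was the 1 gene of 41 not called at that time, had covered 45.6% of its rise by then, and reached 10.75, 10.86 and 10.97 at 60 h. Gmnn, which encodes the Cdt1 inhibitor, had covered 56.8% of its rise by 36 h. It read 7.88, 8.29 and 8.41 at 60 h against 7.35, 7.20 and 7.11 at 36 h in VCAM cells (0.97, SE 0.13, adjusted p = 3.16e-07), and the SD among the 60 h arrays was 0.28.

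**Figure D3:**
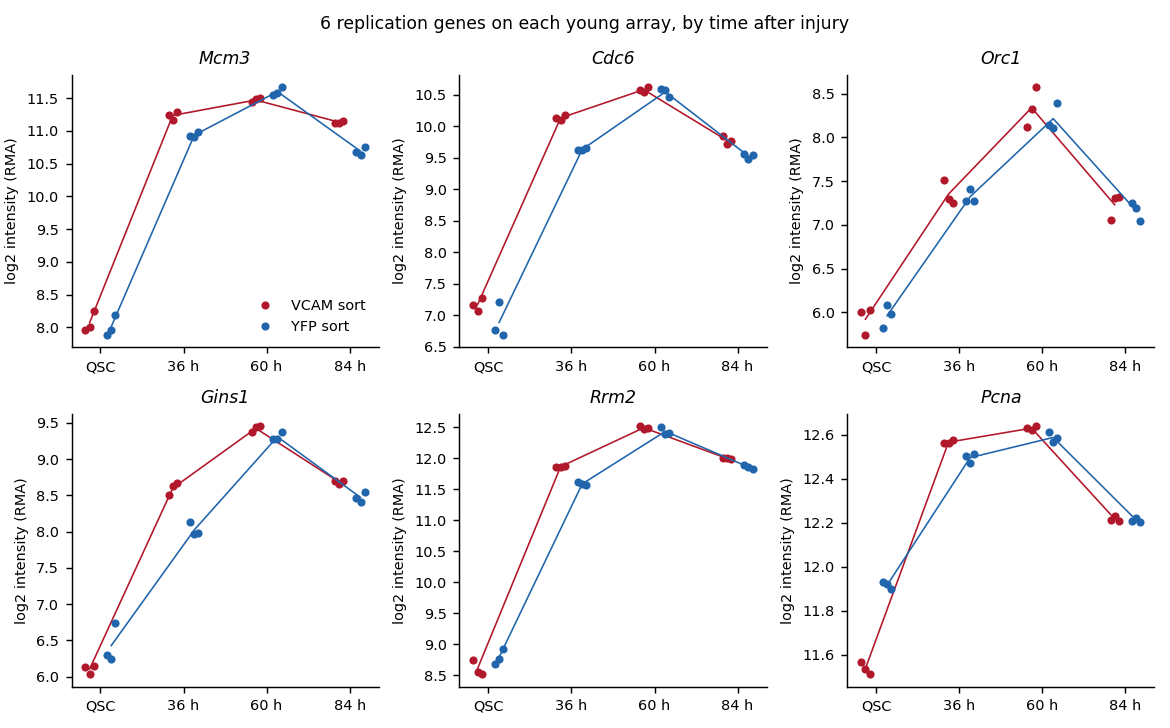
Log2 intensity on each young array (y axis, a range of its own in each panel) by time (x axis: QSC, 36, 60 and 84 h) for 6 genes, with VCAM arrays in red left of YFP arrays in blue and lines through the means of 3 arrays. Orc1 and Gins1 peak at 60 h, Mcm3 is near its highest level at 36 h in VCAM cells, and Pcna spans little more than 1 log2 unit in all.

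Of the genes that activate the helicase, Gins1 changed most from QSCs in VCAM cells, while in YFP cells Mcm10 changed more (2.10 at 36 h). It read 6.14, 6.03 and 6.15 in VCAM QSCs, 8.50, 8.62 and 8.67 at 36 h, 9.37, 9.45 and 9.45 at 60 h, and 8.70, 8.65 and 8.70 at 84 h. In YFP cells it read 6.30, 6.24 and 6.75 in QSCs, 8.13, 7.96 and 7.98 at 36 h, 9.27, 9.28 and 9.37 at 60 h, and 8.46, 8.40 and 8.55 at 84 h. At 36 h all VCAM arrays were above all YFP arrays, and in QSCs all were below them. The YFP step from 36 to 60 h was 1.28 (SE 0.09, adjusted p = 2.36e-12), the largest of that step among the 41 genes. From 60 to 84 h Gins1 fell by 0.74 in VCAM cells (SE 0.09, adjusted p = 2.85e-07) and by 0.84 in YFP cells.

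The other activators differed in how much of the rise came after 36 h. Mcm10, which acts with the ring at the start of unwinding, rose by 2.17 at 36 h in VCAM cells and again by 0.77 to 60 h, then fell by 0.74. Cdc45 rose by 1.87 and again by 0.67. Gins3 had covered 45.5% of its rise by 36 h, the lowest share of the 41 genes in VCAM cells, and 45.8% in YFP cells, also the lowest there, whereas Gins2 and Gins4 did not reach the fold in either step in either sort.

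The clamp and its loader had the smallest median change from QSCs at 60 h in VCAM cells of the 7 roles (1.96). Pcna, which encodes the sliding clamp, read 11.56, 11.54 and 11.51 in VCAM QSCs, 12.56, 12.56 and 12.57 at 36 h, 12.63, 12.62 and 12.64 at 60 h, and 12.21, 12.23 and 12.21 at 84 h. The groups did not overlap, and the smallest gap was that between 36 and 60 h. The rise at 36 h was 2.04-fold (log2 1.03, SE 0.04, adjusted p = 7.8e-19).

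In YFP cells Pcna read 12.51, 12.47 and 12.51 at 36 h and 12.21, 12.22 and 12.21 at 84 h, against 11.93, 11.92 and 11.90 in QSCs. It was the only gene of the 41 not called there at 36 h (0.58, SE 0.04, adjusted p = 2.68e-13, 1.49-fold) and at 84 h (0.30, SE 0.04, adjusted p = 6.46e-08). Its ASC and QSC arrays did not overlap at either time. A second single-gene probe set for Pcna averaged 12.63 at 60 h and 11.54 in QSCs in VCAM cells, the same as the one used. The 5 loader genes rose by 0.94 (Rfc5) to 2.15 (Rfc4) at 36 h in VCAM cells, and Rfc4 was the only one of the group called again between 36 and 60 h there (0.75), while Rfc2 (0.86) and Rfc4 (0.69) were called in YFP cells.

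Among polymerase and primase genes Prim1, the catalytic subunit of primase, rose most. It read between 6.96 and 7.18 in VCAM QSCs, 10.12, 10.12 and 10.15 at 36 h, 10.73, 10.76 and 10.78 at 60 h, and 10.30, 10.29 and 10.26 at 84 h, and was 8.26-fold higher at 36 h than in QSCs (log2 3.05, SE 0.06, adjusted p = 1.03e-23). Pole, the catalytic subunit of polymerase epsilon, rose by 2.87. Prim2, the other primase subunit, rose by 2.14 and had covered 96.8% of its rise by 36 h, the highest share in VCAM cells. Between 36 and 60 h the largest step of the group was that of Pola2, the accessory subunit of polymerase alpha, which read 9.65, 9.75 and 9.82 at 60 h against 8.75, 8.88 and 8.89 at 36 h (0.90, SE 0.10, adjusted p = 3.07e-08). Pole2 was called lower at 84 h than at 60 h in VCAM cells (-0.67) and not in YFP cells (-0.32).

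The 4 nucleotide supply genes were all called higher than in QSCs at each time in both sorts. Rrm2, the small subunit of ribonucleotide reductase that limits its activity through the cell cycle, read 8.75, 8.55 and 8.51 in VCAM QSCs, 11.85, 11.86 and 11.88 at 36 h, 12.52, 12.47 and 12.49 at 60 h, and between 11.98 and 12.01 at 84 h. It was 9.58-fold higher at 36 h than in QSCs (log2 3.26, SE 0.06, adjusted p = 7.06e-25), the largest rise of the 41 genes at that time. From 36 to 60 h all 4 were called higher in VCAM cells, by 0.62 to 0.66, and 3 of 4 in YFP cells. From 60 to 84 h the 4 genes stayed short of the fold in both sorts, with differences of -0.17 to -0.49 in VCAM and -0.06 to -0.57 in YFP cells.

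Tk1, cytosolic thymidine kinase, took the second largest step between 36 and 60 h in YFP cells, with 9.91, 9.94 and 10.12 at 60 h against 8.83, 8.81 and 8.75 at 36 h (1.19, SE 0.08, adjusted p = 3.77e-13). A dimmer second probe set for Tk1 averaged 8.58 at 60 h and 7.63 at 36 h in YFP cells. The 2 probe sets differed in old QSCs, where the dimmer averaged 7.14 in old and 6.48 in young VCAM cells and the brighter 7.62 and 7.55, so the Tk1 values are uncertain in that comparison.

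The genes of fragment joining, single-strand binding and chromatin assembly were called at each time in both sorts. Chaf1b, a subunit of the histone chaperone CAF-1, read 9.67, 9.71 and 9.77 at 36 h against 6.52, 6.57 and 6.92 in VCAM QSCs (8.27-fold, log2 3.05, SE 0.08, adjusted p = 6.78e-22). Lig1, the ligase that seals Okazaki fragments, rose by 2.49 at 36 h, and Fen1, the flap nuclease, by 1.80. Only Fen1 of this group was called in both steps in VCAM cells, higher by 0.77 to 60 h and lower by 0.63 at 84 h. In YFP cells Chaf1a, Chaf1b, Lig1 and Fen1 were called lower at 84 h than at 60 h (-0.60 to -0.79). Rpa1 and Rpa2, subunits of the single-strand binding complex, were not called in either step.

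Over the 7 roles, 18 genes were called higher at 60 h than at 36 h in VCAM cells, against 6.26% of all genes, and 23 in YFP cells, against 8.73%, with 15 called in both (83.3% of the VCAM and 65.2% of the YFP list). The genes called in VCAM cells alone were Orc6, Pole2 and Tyms. By adjusted p alone the counts were 39, against 26.8% of all genes, and 40, against 29.5%. All 41 changes were above 0 in both sorts, also with arrays centred on their medians and after quantile normalization over genes. Centring moved the median over all genes in this step from 0.00 to 0.11 in VCAM cells and from 0.04 to 0.13 in YFP cells. With centred arrays 20 and 30 of the 41 genes were called. The higher calls over all genes rose as well, from 1249 to 1992 in VCAM cells and from 1740 to 2258 in YFP cells.

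From 60 to 84 h, 6 genes were called lower in VCAM cells, against 0.732% of all genes, and 15 in YFP cells, against 2.19%. Cdc6, Fen1, Gins1, Mcm10 and Orc1 were in both lists, 83.3% of the VCAM and 33.3% of the YFP list. By adjusted p alone 35 genes were lower in VCAM cells, against 13.4% of all genes, and 36 in YFP cells, against 20.8%. All 41 differences were below 0 in both sorts under each of the 3 scalings. Centring raised the lower calls over all genes in VCAM cells from 146 to 277, when the median over all genes was -0.09. With centred arrays 13 of the 41 genes were called lower in VCAM cells. At 84 h the genes kept a median of 83.6% of their 60 h rise in VCAM and 79.7% in YFP cells, from 44% (Pcna in YFP cells) to 97.9% (Rrm1 in YFP cells). The 2 steps share their 60 h arrays.

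**Figure D4:**
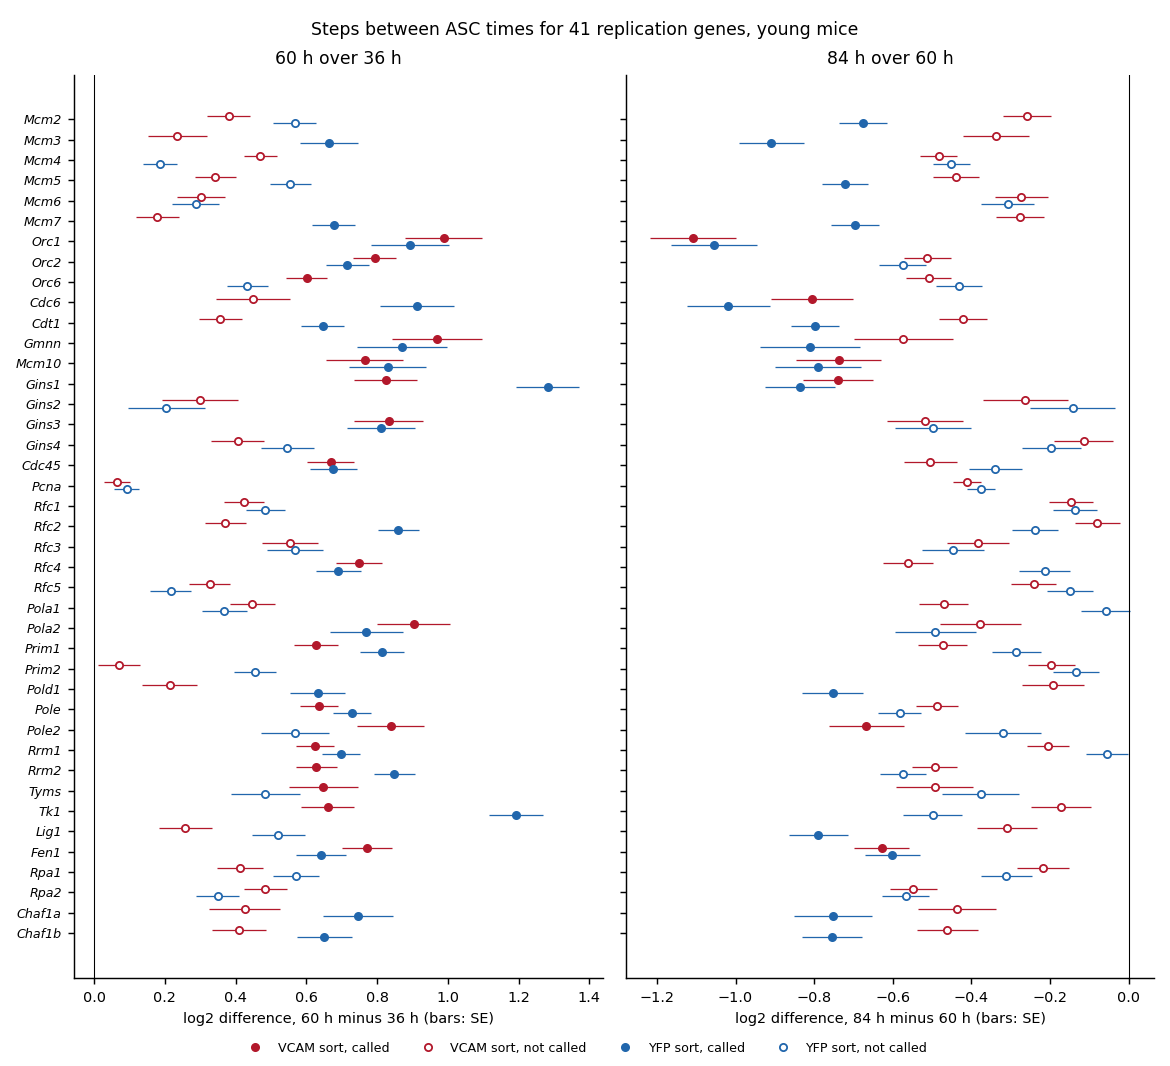
Log2 difference of each of the 41 genes between successive ASC times in young mice (x axis; left 60 h minus 36 h, right 84 h minus 60 h), with SE bars, VCAM in red above YFP in blue and filled points for genes called at adjusted p under 0.05 and a fold of at least 1.5. All points lie right of 0 on the left and left of 0 on the right, and 18 red and 23 blue points on the left and 6 red and 15 blue points on the right are filled.

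Markers of other cells moved over the same times. The mean of a list of 12 macrophage genes was 6.43 to 6.51 on young VCAM QSC arrays, 9.95 to 10.08 at 36 h, 7.93 to 8.04 at 60 h and 8.71 to 8.74 at 84 h, and 12 of 12 were called higher at 36 h and at 60 h than in QSCs and 12 of 12 lower at 60 h than at 36 h. In that last step 4 of 4 fibroblast, 6 of 6 endothelial and 6 of 6 pericyte genes were called lower as well. There 4 of 5 muscle differentiation genes were called higher, and all 41 replication genes had changes above 0. The mean of 10 satellite cell genes was 11.94 to 11.98 in young VCAM QSCs and 9.92 to 10.43 at 36 and 60 h. Of the 10 genes 6 were called lower than in QSCs at each of these times. Pax7 was lower by 2.73 at 36 h, whereas Itga7 averaged 11.47 in QSCs, 11.62 at 36 h and 11.99 at 60 h. Ptprc, which encodes the CD45 that the VCAM sort selected against, was 2.80 higher at 36 h. The mean of 5 muscle differentiation genes was 10.79 to 10.84 at 84 h and 8.49 to 8.67 at 60 h. The part of these cells in the replication gene values was not tested.

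Further genes of the same processes, listed beside the 41 with earlier results of these data known, were mostly called higher in young VCAM cells too. Over all genes 13.2% were called higher than in QSCs at 36 h and 16.6% at 60 h. Of 13 other licensing and firing genes 9 were called higher at 36 h than in QSCs, and 11 at 60 h. Among them at 36 h were Ticrr (2.28), which recruits Cdc45, and Dbf4 (1.41), the activator of the Cdc7 kinase. Of 20 other fork and polymerase genes 16 were called at each of the 2 times, with Top2a (3.69 at 36 h) and the exonuclease Exo1 (2.24) among them. Top1 (-0.51) and Rnaseh2c (0.04) were not called. Of 21 measured nucleotide synthesis genes 15 were called at 36 h and 17 at 60 h, among them Shmt2 (2.31 at 36 h), the mitochondrial serine hydroxymethyltransferase, and Dut (1.48), the dUTPase. Rrm2b (0.01), the p53-inducible reductase subunit, and Tk2 (-0.40), the mitochondrial thymidine kinase, were not called at either time. All 6 chromatin replication genes were called at both times, Hells (3.76 at 36 h), a chromatin remodeller, and Uhrf1 (3.28), which brings Dnmt1 to new DNA, most of all.

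Between VCAM and YFP cells no member was called in QSCs, where 3.55% of all genes were called in either direction, at 36 h (5.27%), at 60 h (1.31%) or at 84 h (1.66%). At an unadjusted limma p under 0.05 the members counted 20 in QSCs, against 36.9% of all genes, 22 at 36 h, against 44.6%, 9 at 60 h, against 25.1%, and 20 at 84 h, against 31.9%. The median difference, VCAM minus YFP, was 0.04 in QSCs, 0.13 at 36 h, 0.07 at 60 h and 0.12 at 84 h. At 36 h 17 genes were higher in VCAM cells by adjusted p alone, against 19.6% of all genes, and Mcm4 (-0.13) was lower, against 17.7%.

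The largest difference at 36 h was that of Gins1 (0.57, SE 0.09), just under the fold. Leaving out replicate 1 of either 36 h group brought 1 gene past it. Markers of other cells also differed at that time. The mean of 6 endothelial genes was 8.85 to 8.96 in VCAM and 10.25 to 10.31 in YFP cells, that of 12 macrophage genes 9.95 to 10.08 in VCAM and 9.75 in YFP cells, and that of 4 fibroblast genes 12.68 to 12.72 in VCAM and 11.24 to 11.28 in YFP cells. Their part in the difference was not tested.

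The rise from QSCs to 36 h was tested for a difference between the sorts. Such a difference cannot be told apart from one of genotype or of any tamoxifen treatment. The rise was larger in VCAM cells for 2 genes, Gins1 and Rrm1, against 4.47% of all genes, and smaller for none. By this rule the 2 genes are a share close to that over all genes. By adjusted p alone 17 genes rose more in VCAM cells. No share over all genes was taken for these, so the count is not read as a trait of the set. Only 1 gene, Orc6, rose less by adjusted p alone, against 14.9% of all genes. Rrm1, the large subunit of ribonucleotide reductase, read 11.82, 11.87 and 11.81 at 36 h against 9.06, 9.28 and 9.26 in QSCs in VCAM cells, and 11.66, 11.67 and 11.71 at 36 h against 9.61, 9.75 and 9.83 in QSCs in YFP cells. The rises of 2.63 and 1.95 differed by 0.68 (SE 0.08, adjusted p = 9e-08), and in QSCs Rrm1 was 0.53 lower in VCAM than in YFP cells. After quantile normalization the difference in response was 0.55, under the fold required. The mean of 6 pericyte genes was 10.79 to 10.87 in VCAM and 9.54 to 9.62 in YFP QSCs, with 4 of 6 called higher in VCAM cells, and their part in the difference was not tested. The rises of Gins1, 2.49 in VCAM and 1.59 in YFP cells, differed by 0.90 (SE 0.13, adjusted p = 2.85e-06).

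All 41 genes were called higher in old VCAM cells at 60 h than in old QSCs, against 17.8% of all genes, with changes from 0.88 (Pcna) to 4.14 (Prim1) and a median of 2.44, where the median over all genes was -0.11. In QSCs 2 genes were called lower in old than in young mice, against 4.70% of all genes, and none higher. By adjusted p alone 18 were lower, against 21.3% of all genes, and 6 higher, against 16.7%. By the fold rule the 2 genes are a share close to that over all genes.

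Prim1 read 6.44, 6.50 and 6.27 in old against 6.96 to 7.18 in young QSCs, a difference of -0.68 (SE 0.06, adjusted p = 1.42e-09), or 1.60-fold lower. Rpa1, the large subunit of RPA, read 7.87, 7.73 and 7.67 in old against 8.46, 8.48 and 8.26 in young QSCs, a difference of -0.65 (SE 0.07, adjusted p = 6.43e-09). Neither gene's groups overlapped. Between old and young QSCs 24 of the 41 genes had no overlap, in either direction. The share over all genes was not taken, so this count is not read as a trait of the set. Rfc1, the large subunit of the clamp loader, read 8.12, 8.17 and 8.12 in old against 8.67, 8.71 and 8.71 in young QSCs, and its difference of -0.56 (SE 0.06, adjusted p = 5.06e-09) fell just short of the fold. The genes higher in old QSCs by adjusted p alone were Mcm4, Mcm5, Cdt1, Pcna, Rrm2 and Rpa2, by 0.16 to 0.35. The satellite cell list averaged 11.56 to 11.60 in old and 11.94 to 11.98 in young QSCs, with 3 of 10 genes called lower. The proliferation list averaged 6.33 to 6.37 in old and 6.92 to 7.02 in young QSCs, with 3 of 6 called lower. The mean of 6 pericyte genes was 10.06 to 10.07 in old and 10.79 to 10.87 in young QSCs, with 5 of 6 called lower in old cells. That of 4 fibroblast genes was 10.72 to 10.78 in old and 10.03 to 10.20 in young QSCs. Of these 3 were called higher in old cells and 1, Col1a1, lower (11.20 against 11.88). The part of these cells in the differences was not tested.

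**Figure D5:**
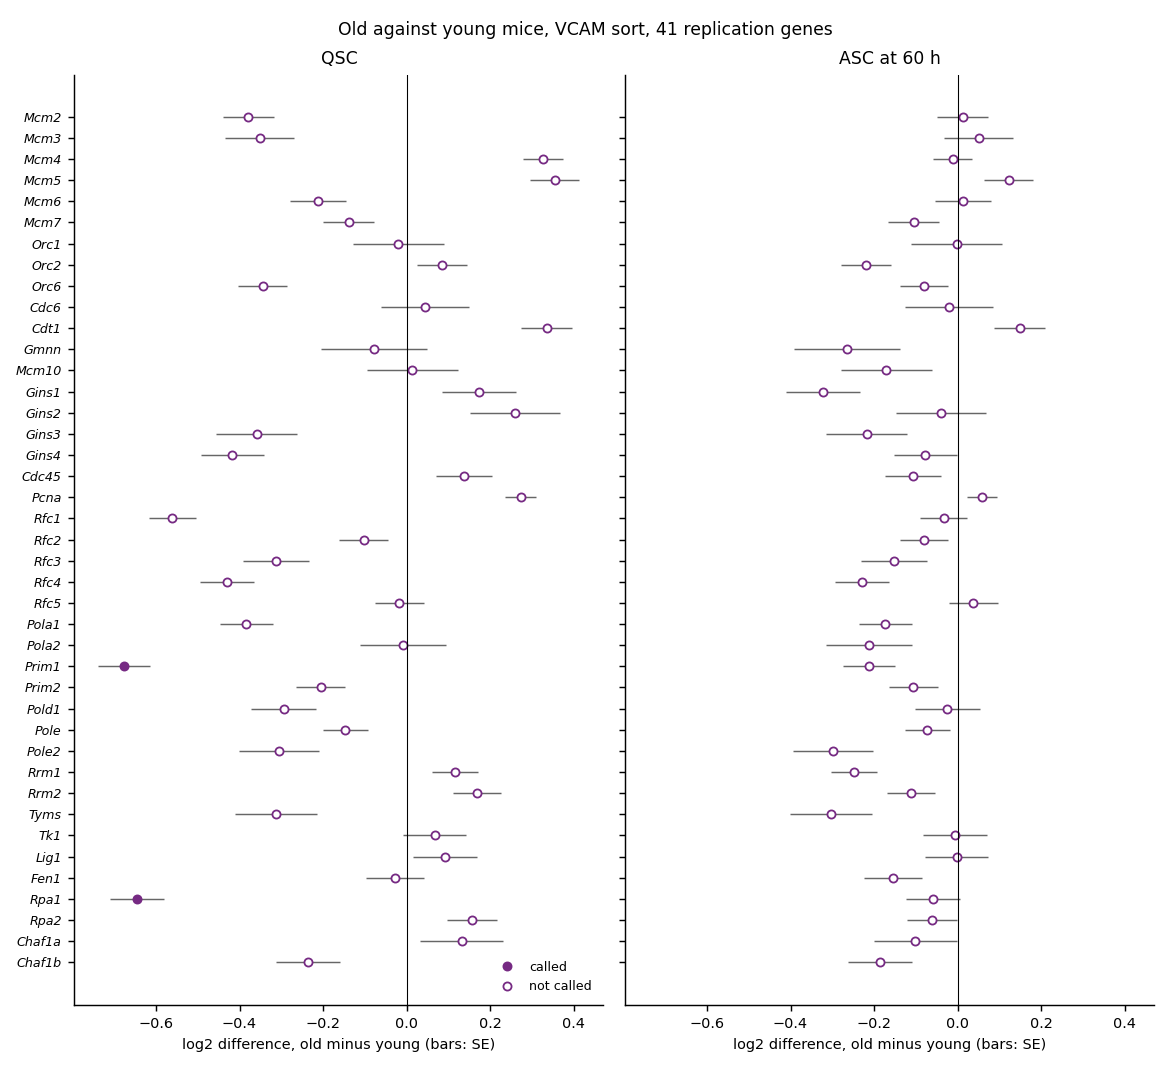
Log2 difference of each of the 41 genes between old and young mice in the VCAM sort (x axis, old minus young, with SE bars), in QSCs on the left and in ASCs at 60 h on the right, with filled points for genes called. In QSCs Prim1 (-0.68) and Rpa1 (-0.65) are filled, and at 60 h no point is and all lie between -0.32 and 0.15.

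At 60 h no gene was called between old and young mice, against 5.41% of all genes called in either direction, and the 41 differences ran from -0.32 to 0.15 with a median of -0.08. At an unadjusted limma p under 0.05 the count was 15, against 37.5% of all genes, and by adjusted p alone 8 were lower in old cells, against 13.7% of all genes. Gins1 read 9.07, 9.11 and 9.12 in old against 9.37, 9.45 and 9.45 in young ASCs (-0.32, SE 0.09, adjusted p = 0.00703), Tyms, thymidylate synthase, 9.97, 9.87 and 9.88 against 10.12, 10.24 and 10.26 (-0.30, SE 0.10, adjusted p = 0.0206), and Pole2 8.76, 8.51 and 8.78 against 8.84, 8.97 and 9.14 (-0.30, SE 0.10, adjusted p = 0.0206). For all 3 genes every old array lay below every young array. Between the ages at 60 h, 19 of the 41 genes had no overlap, in either direction. The share over all genes was not taken, so this count is not read as a trait of the set. Macrophage genes averaged 9.81 to 9.90 in old and 7.93 to 8.04 in young ASCs at this time and 12 of 12 were called higher in old cells. Also called higher there were 5 of 6 endothelial, 3 of 4 fibroblast and 4 of 6 pericyte genes, while 3 of 5 muscle differentiation genes were called lower. The part of these cells in the differences was not tested.

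The rise from QSCs to 60 h was larger in old than in young mice for Rpa1 alone, against 6.81% of all genes, and smaller for none past the fold. Rpa1 rose by 2.45 in old and by 1.86 in young cells, and the difference of 0.59 (SE 0.09, adjusted p = 1.29e-05) sat at the fold required. It fell under that fold when arrays were centred on their medians (0.49), after quantile normalization (0.575), and without any 1 of 7 single arrays (0.544 to 0.578): young QSC replicate 1 or 2, young 60 h replicate 1 or 2, old QSC replicate 2 or 3, or old 60 h replicate 3. By adjusted p alone the change was larger in old cells for 7 genes, against 18.7% of all genes, and smaller for 8, against 12.6%, with Rfc1 (0.53) and Prim1 (0.46) among the first and Gins1 (-0.50) and Rrm1 (-0.36) among the second.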

How the data were processed

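The 30 samples of sorted satellite cells were each measured on 1 array (Affymetrix Mouse Gene 1.0 ST). The deposited table holds log2 intensities that the authors made with Affymetrix Expression Console and RMA (background correction, quantile normalization and summary per probe set); the sources used here give no versions for these. Of 35556 probe sets, 21789 had 1 gene symbol, 1621 several and 12146 none, by the platform annotation. One probe set per gene, that with the highest mean, gave 19938 genes, with no filter on low values, and multi-gene probe sets were left out. Array medians lay between 7.03 and 7.16, and arrays of a group correlated at 0.996 to 0.9983 across genes. The number of arrays limits the precision.

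Groups came from the labels. A linear model with 10 group means was fitted to all genes in limma 3.58.1 (R 4.3.3) for 19 comparisons, with Benjamini-Hochberg adjustment over 19938 genes, and a call needed an adjusted p under 0.05 and a fold of at least 1.5. The script was tested on simulated data. All arrays share 1 estimate of spread. Array values were given for the genes of the largest changes, for genes not called with the rest, and for 6 of known role; other genes were named from the lists alone. The members and lists were chosen with earlier results of these data known. Alternatives changed the threshold, scaling, probe set rule, dim genes, samples fitted, variance model, replicate block and single arrays. Promoters came from RefSeq (GRCm38.p6), and figures were drawn with matplotlib 3.10.9.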

Additional observations from a re-analysis of the deposited data

Results flagged for a closer look

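Results are given here where the change itself differed between groups by a test of the difference in limma, with 3 arrays in each group.

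The rise of Gins1 from QSCs to 36 h was larger in VCAM than in YFP cells by 0.896 on the log2 scale (SE 0.13, adjusted p = 2.85e-06). The rise of Rrm1 was larger in VCAM than in YFP cells by 0.682 (SE 0.08, adjusted p = 9e-08), and Rrm1 read 9.06 to 9.28 in VCAM QSCs against 9.61 to 9.83 in YFP QSCs. The Rrm1 difference was 0.55 after quantile normalization, under the fold required. The rise of Rpa1 from QSCs to 60 h was larger in old than in young VCAM cells by 0.586 (SE 0.09, adjusted p = 1.29e-05), a value at the fold required that fell short of it with centred arrays (0.49) and after quantile normalization (0.575). Pericyte genes averaged 10.06 to 10.07 in old VCAM, 10.79 to 10.87 in young VCAM and 9.54 to 9.62 in young YFP QSCs, and their part in the differences was not tested. For Gins1 and Rrm1, sort, genotype and any tamoxifen treatment cannot be told apart. Groups of 3 arrays are too small for a test of single outlying arrays.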

How the results depend on the processing

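No result reversed: 498 of 498 values of the 32 gene and comparison pairs named kept their direction over 9 other settings and the arrays left out in turn, and 466 kept their call. Of the counts of called genes, 310 of 342 stayed within 1.5 times under the other settings and 241 of 252 with an array left out.

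With no fold threshold, 39 genes were higher at 60 h than at 36 h in VCAM and 40 in YFP cells, and 35 were lower at 84 h than at 60 h in VCAM and 36 in YFP cells. VCAM against YFP cells then gave 8 higher and 9 lower in QSCs, 17 and 1 at 36 h, 4 higher at 60 h, and 13 and 1 at 84 h. The difference in response at 36 h gave 17 and 1. Over all genes the shares at 36 h were 19.6% higher and 17.7% lower. For QSCs, 60 h, 84 h and the larger responses no such share was taken, so these counts are not read as a trait of the set. Old against young gave 6 higher and 18 lower in QSCs, 8 lower at 60 h, and 7 and 8 for the response. With a fold of at least 2, the step to 60 h kept 0 genes in VCAM and 2 in YFP cells, and that to 84 h 1 and 2, while the difference in response between sorts, old against young QSCs and the age difference in response kept 0.

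With arrays centred on their medians, 13 genes were lower at 84 h in VCAM cells, 1 was lower in VCAM than in YFP QSCs, and the age difference in response gave 0 higher and 1 lower. After quantile normalization, 1 gene was higher in VCAM than in YFP cells at 36 h, 1 differed in response between sorts (Rrm1 fell short at 0.55), and the age difference gave 0. Centring changed the split of higher and lower calls over all genes from 1249 and 1692 to 1992 and 1384 for 60 h against 36 h in VCAM cells, from 1740 and 1711 to 2258 and 1463 in YFP cells, from 642 and 146 to 504 and 277 for 84 h against 60 h in VCAM cells, from 930 and 437 to 792 and 591 in YFP cells, from 2021 and 1225 to 1673 and 1585 for YFP cells at 36 h, from 892 and 920 to 1142 and 738 for the sort difference in response, from 346 and 362 to 268 and 495 for the sorts in QSCs, and from 1358 and 430 to 1016 and 742 for the age difference in response. Quantile normalization gave 1192 and 646 for the last. The cause of these shifts was not tested.

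With single arrays left out, VCAM against YFP QSCs gave 0 to 1 gene in each direction (1 each without YFP QSC replicate 1), the sorts at 36 h 0 to 1 higher, and the age difference in response 0 to 1 higher. Pcna at 36 h in YFP cells passed the fold without YFP QSC replicate 1 (0.587) or 36 h replicate 2 (0.592) and with the mean of its probe sets (0.586). The labels do not say whether equal replicate numbers pair the arrays. Deviations from the group means were correlated between arrays of different groups. The mean correlation was 0.035 for equal and -0.018 for unequal numbers, and 27 of 135 pairs of the same number were above 0.1. These values do not settle whether arrays were paired. A fit with a replicate block kept every count, among them 40 genes at 36 h, 18 and 23 in the step to 60 h, and 6 and 15 in the step to 84 h.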
